A study of Mus musculus with 17 samples.

Results

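The lung cultures of Ephb4 control mice given bleomycin were compared with those of Ephb4 control mice given PBS, in 8 of the 17 RNA-Seq libraries of the series and across 10481 of the 55421 genes in the deposited table. The libraries were chosen by their labels, and the genes were those above 10 CPM (gene counts rescaled so that all libraries have the same depth) in at least 2 of the 17 libraries. All 8 mice carried floxed Ephb4 alleles and a tamoxifen-inducible Cre driven by Col1a2 (Ephb4f/f; Col1a2-CreERT2), the collagen gene of mesenchymal cells, and had received corn oil, the vehicle, at 4 weeks of age, so that Cre was present but not induced. At 6 weeks of age, 4 mice received bleomycin at 1.2 U/kg into the trachea and 4 received PBS. Lungs were taken 14 days later, cells were grown in serum and passaged 1 time, and each library came from the culture of 1 mouse. Another 9 libraries came from Ephb4 CKO mice, which have the same alleles and received 4-hydroxytamoxifen in place of corn oil (5 given PBS, 4 given bleomycin).

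Bleomycin breaks DNA and, when given into the airway, injures the alveolar epithelium. In the weeks that follow, lung fibroblasts take on a contractile, matrix-producing state, and monocyte-derived macrophages join the resident alveolar macrophages, which normally clear surfactant lipids. A culture made from such a lung holds whichever of these cells attached and grew, and total RNA-Seq reads their sum. In such bulk samples, fewer cells of a type and less RNA per cell cannot be told apart.

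The total count was 74005256 to 109540398 in the 4 PBS libraries and 88854733 to 120554468 in the 4 bleomycin libraries, so the spread between mice rather than counting error limited the precision of the abundant genes. In the 8 libraries, 18.1% to 35.2% of all counts lay in 8 noncoding genes. Sex-linked genes went against the label in 3 of the 17 libraries, namely bleomycin library 2 and Ephb4 CKO bleomycin libraries 1 and 2. By the labels, bleomycin mice 1 and 2 and PBS mice 2 to 4 were female, and bleomycin mice 3 and 4 and PBS mouse 1 male. By the sex-linked genes, bleomycin libraries 2 to 4 read male and PBS libraries 2 to 4 female, so that sex and treatment were partly confounded. Bleomycin libraries 3 and 4 were the most alike (Pearson r of 0.979 across genes, which are not independent replicates), but their counts differed far beyond sampling noise and each was kept as a sample. Both mice were labelled male and had adjacent animal numbers, and a difference beyond sampling noise does not show that they were independent in other respects. The animal numbers of all 4 bleomycin mice and of PBS mouse 1 begin with 12 and those of PBS mice 2 to 4 with 11, so that number series and treatment can hardly be told apart.

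The labels call the cultures fibroblasts, but macrophage markers summed to more CPM than fibroblast markers in all of the 8 libraries except bleomycin library 1. These sums compare unlike lists and lean on Lyz2 (14618 of 21709 CPM in bleomycin library 2), so their order does not rank cell numbers. By mean log2 CPM, fibroblast and macrophage markers were at 7.879 and 7.843 in bleomycin library 4. They were at 8.035 and 8.146 in bleomycin library 2, and at 7.342 and 7.418 in PBS library 3. In the others, bleomycin library 1 aside, macrophage markers were higher by this measure too. Fibroblast markers were also far lower in 3 of the 4 PBS libraries than in the others. All 12 fibroblast markers kept had higher means after bleomycin, and 6 did not overlap between the groups, against 5.72% of all genes higher without overlap. Col1a1, the main chain of type I collagen, was at 34.9, 1.88, 861 and 0.360 CPM in PBS libraries 1 to 4 and at 1514, 2239, 652 and 1268 CPM in bleomycin libraries 1 to 4. PBS library 3 lay within the bleomycin range, while PBS libraries 1, 2 and 4 were far below it. Pdgfra, a receptor that marks lung fibroblasts, was at 7.53, 7.95, 384 and 3.02 CPM and 210.1, 319, 87.4 and 119 CPM in the same order. The summed level of the fibroblast list was 156 to 8073 CPM after PBS and 6466 to 12727 CPM after bleomycin. Macrophage markers were abundant in 7 of the 8 libraries, with a summed level of 11344 to 47481 CPM after PBS and of 16623 to 21709 CPM in bleomycin libraries 2 to 4, against 1564 CPM in bleomycin library 1. Lyz2, the lysozyme of macrophages, was at 19890.2, 36594, 7711 and 29324 CPM after PBS and 863, 14618, 14850.0 and 11262 CPM after bleomycin. By group medians the summed fibroblast markers were higher and the summed macrophage markers lower after bleomycin, and both overlapped between the groups. Smooth muscle and pericyte markers did not overlap, at a summed 15.2 to 766 CPM after PBS and 2755 to 3217 CPM after bleomycin.

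**Figure D1:**
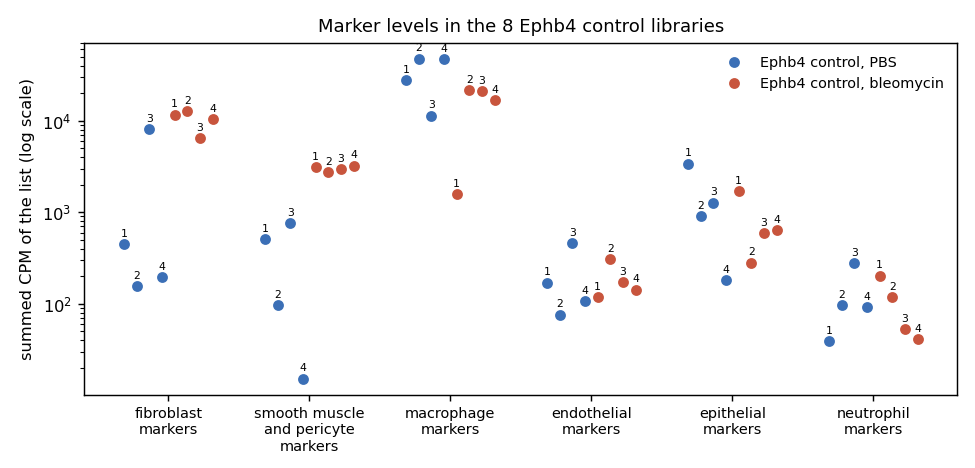
Summed CPM (log scale) of 6 lists of cell type markers in the 4 PBS (blue) and 4 bleomycin (red) libraries of Ephb4 control mice, each point 1 library with its number. Fibroblast markers were low in PBS libraries 1, 2 and 4 only, macrophage markers were low in bleomycin library 1 only, and endothelial, epithelial and neutrophil markers overlapped between the groups.

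At a Benjamini-Hochberg adjusted p of 0.05, edgeR's quasi-likelihood test called 0 genes. Its unadjusted p was under 0.05 for 1494 genes (14.3% of those tested), of which 658 were higher after bleomycin (6.28%) and 836 lower (7.98%), where 524 would pass by chance. DESeq2 called 166 genes (1.58%) at an adjusted p of 0.05, 98 higher (0.935%) and 68 lower (0.649%), and limma voom called 0 with 1775 at an unadjusted p under 0.05. Without bleomycin library 1, PBS library 2 or PBS library 3, edgeR's count at the unadjusted threshold was 811, 743 or 2614. With the labelled sex as a covariate it was 1356, and without the 3 libraries whose sex-linked genes went against the label 1140. With the number series as a covariate it was 628, with the macrophage marker level 625 and with the fibroblast marker level 279. Of the 1494 genes, 137 passed in the same direction beside the fibroblast marker level, 95 higher and 42 lower, and 124 took the other sign. The words higher and lower below therefore describe means and counts at the unadjusted threshold, and no gene is said to have changed by the adjusted test.

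The genes with the smallest p held nearly flat values within each group. Disp1 (chr1:183086266-183221522 in GRCm38), which releases lipid-modified Hedgehog ligands from the cells that make them, was at 7.38, 7.86, 6.08 and 6.31 CPM after PBS and 15.9, 15.2, 18.6 and 18.6 CPM after bleomycin. Ralgapa2 (chr2:146239879-146512344), the catalytic subunit of a complex that switches off Ral GTPases, was at 53.6, 42.2, 35.6 and 40.8 CPM after PBS and 15.9, 22.3, 21.3 and 20.6 CPM after bleomycin. For both genes every bleomycin library lay on 1 side of every PBS library, PBS library 3 included. The log2 fold changes were 1.30 ± 0.22 (SE) for Disp1 and -1.10 ± 0.18 for Ralgapa2, with an adjusted p of 0.118 for both in edgeR's quasi-likelihood test. The groups did not overlap for 934 genes (8.91% of those tested), of which 599 were higher after bleomycin (5.72%) and 335 were lower (3.2%). The counts of each list below are to be read beside these shares. At the unadjusted threshold the shares were 6.28% higher and 7.98% lower.

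Among the next genes higher after bleomycin were Galnt10, which starts O-linked glycans on secreted proteins (log2 fold change 1.10 ± 0.21), Atf5, a transcription factor of the amino acid response (1.57 ± 0.30), Eno3, the muscle enolase (2.14 ± 0.43), and Akt1s1, a subunit that restrains mTORC1 (1.03 ± 0.21). Slc25a4, the mitochondrial carrier that exchanges ADP for ATP, had 0.99 ± 0.22, Sipa1l1, a GTPase-activating protein for Rap, had 1.67 ± 0.37, Adpgk, an ADP-dependent glucokinase, had 0.83 ± 0.19, and Pmp22, a membrane protein best known from myelin, had 2.11 ± 0.48. Eno3 was at 4.08, 5.26, 3.91 and 4.36 CPM after PBS and 14.2, 18.8, 21.4 and 23.5 CPM after bleomycin, without overlap. Galnt10 was at 15.03, 15.003, 19.6 and 23.5 CPM and 40.2, 47.2, 34.5 and 35.2 CPM.

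Among the genes lower after bleomycin, 2 more act on the small GTPase Rab5, which governs early endosomes. Usp6nl, which switches Rab5 off, was at 39.5, 46.1, 43.9 and 40.4 CPM after PBS and 27.6, 29.9, 25.1 and 23.5 CPM after bleomycin, and Rin2, which switches it on, was at 124, 175, 88.2 and 114 CPM and 35.5, 57.4, 55.5 and 59.9 CPM. Of the 24 Ral and Rab5 regulators kept, 4 passed the unadjusted threshold, all lower, and the median log2 fold change was -0.27 against -0.06 over all genes. The list was drawn up with Ralgapa2, Usp6nl and Rin2 already known from these libraries, so its count is a description of those genes. Rin2 was -1.27 ± 0.28 and Usp6nl -0.68 ± 0.14 on the log2 scale, with adjusted p of 0.268 and 0.237 in edgeR's quasi-likelihood test. Chd7, a chromatin remodelling enzyme (-1.001 ± 0.23), Cd200, a surface protein that restrains myeloid cells (-2.40 ± 0.58), and Cd82, a tetraspanin (-1.42 ± 0.36), were also lower without overlap. Bcl2a1d, a survival factor, had -1.94 ± 0.49, but it shares reads with near-identical copies and its level is uncertain.

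**Figure D2:**
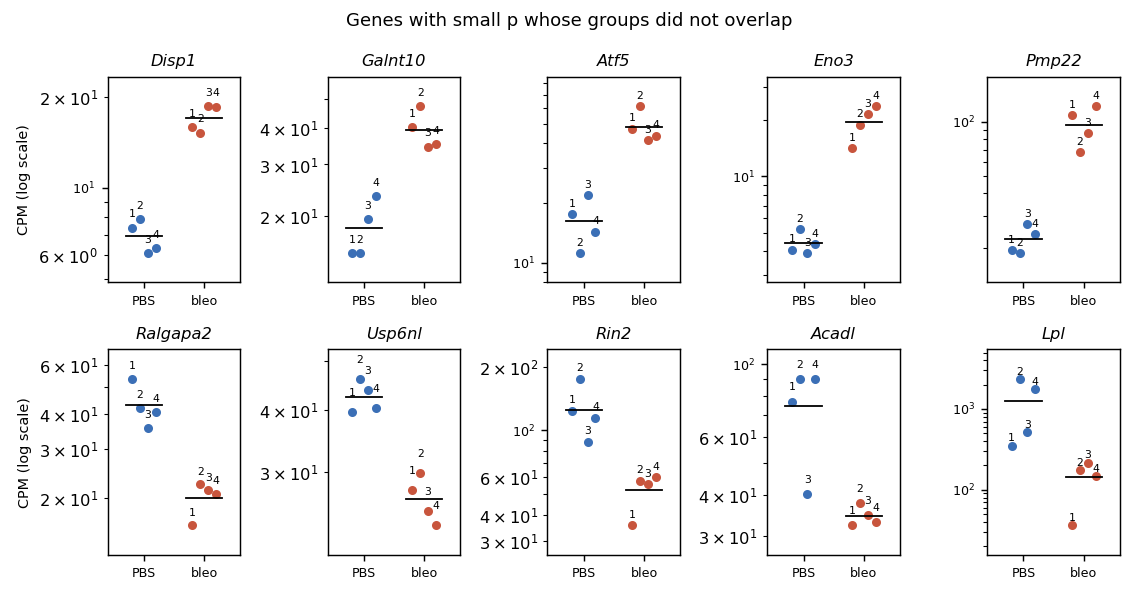
CPM (log scale) of 10 genes in the 4 PBS (blue) and 4 bleomycin (red) libraries, each point 1 library with its number and each bar the group mean. The top row holds genes higher and the bottom row genes lower after bleomycin, none overlapping between the groups.

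Matrix genes had large mean differences and a spread to match. All 8 fibrillar collagen chains kept were higher after bleomycin and the list's median on the log2 scale was 2.42, yet only Col11a1, a minor chain of cartilage-type fibrils, passed the unadjusted threshold. Col11a1 was at 4.97, 0.0450, 8.96 and 0 CPM after PBS and 54.5, 37.9, 153 and 259.9 CPM after bleomycin, so that here PBS library 3 lay with the other PBS libraries. Without PBS library 3 the median was 6.52 and 7 of the 8 chains passed. With the fibroblast marker level as a covariate the median was -0.16. That level is a mean over a list that includes Col1a1, Col1a2, Col3a1 and Col5a1, so it adjusts these chains in part for themselves. Of the chains, 0 passed with the number series as a covariate, 0 with the fibroblast marker level and 1 with the macrophage marker level. Col1a2 and Col3a1, which pair with or accompany type I collagen, had 2.95 ± 2.06 and 1.80 ± 2.27.

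The enzymes that hydroxylate, fold, trim and crosslink collagen were higher in 25 of 25 cases, against 44.5% of all genes, and 7 passed the unadjusted threshold. P3h1, a prolyl hydroxylase, was at 15.2, 22.7, 50.2 and 9.67 CPM after PBS and 114, 71.1, 60.6 and 78.2 CPM after bleomycin, without overlap (log2 fold change 1.73 ± 0.49). Its partner Crtap had 0.88 ± 0.32, the collagen chaperone Serpinh1 2.42 ± 1.13, the propeptide-cleavage enhancer Pcolce 3.36 ± 1.49 and the procollagen proteinase Tll1 3.47 ± 1.49. The median of the list was 1.71. The number passing was 18 without PBS library 3, 2 without bleomycin library 1 or PBS library 4, 3 without bleomycin library 2, bleomycin library 4 or PBS library 2, and 4 without PBS library 1. Of the enzymes, 1 passed with the number series as a covariate, 0 with the fibroblast marker level and 5 with the macrophage marker level. The median with the fibroblast marker level was 0.27.

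The genes that build the sugar chains of proteoglycans differed by less, with a median log2 fold change of 0.44. Of these genes, 3 were higher without overlap. Over all genes, 5.72% were higher without overlap and 6.28% higher at the unadjusted threshold. Ext2, which polymerises heparan sulfate, was at 30.0, 31.2, 36.4 and 38.8 CPM after PBS and 52.8, 56.1, 46.9 and 55.8 CPM after bleomycin, and Chpf, which polymerises chondroitin sulfate, was at 14.97, 14.2, 15.3 and 10.8 CPM and 35.9, 29.1, 28.6 and 27.7 CPM. Every bleomycin library exceeded every PBS library for both genes. Their log2 fold changes were 0.63 ± 0.14 and 1.13 ± 0.25, with an adjusted p of 0.268 and 0.268 in edgeR's quasi-likelihood test and of 0.00206 and 0.00493 in DESeq2. Of the 31 genes of this list, 5 passed the unadjusted threshold, all higher, 12 without PBS library 3 and 3 without bleomycin library 1. Of this list, 3 passed with the number series as a covariate, 2 with the fibroblast marker level and 2 with the macrophage marker level.

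Other matrix genes varied by gene. Cemip, which degrades hyaluronan, was at 2.25, 0.247, 4.95 and 0.501 CPM after PBS and 39.0, 146, 296 and 346 CPM after bleomycin, with a log2 fold change of 6.70 ± 1.74. Timp3, a matrix-bound inhibitor of metalloproteinases, was at 57.3, 20.6, 329.9 and 5.67 CPM and 682, 473, 2028 and 2795 CPM (3.85 ± 1.09). In both genes bleomycin libraries 3 and 4 were the highest and PBS library 3 stayed below every bleomycin library. Postn, a matricellular protein of fibrotic tissue, was at 2.36, 0.146, 56.8 and 0.631 CPM and 73.3, 198, 350.3 and 619 CPM, and Thbs3, a thrombospondin, had 2.79 ± 1.02. Efemp2, needed for elastic fibres, had 1.88 ± 0.65, and Mmp2, a gelatinase, 2.26 ± 0.78. Mmp12, the elastase of macrophages, had -1.70 ± 0.99 with overlapping groups. Among matrix receptors, the fibronectin receptor chain Itga5 was at 48.0, 51.0, 117 and 68.1 CPM after PBS and 319, 135, 142 and 147 CPM after bleomycin, Itgb5 had 1.10 ± 0.35, and the leukocyte-rich chain Itga4 had -1.24 ± 0.57.

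The contractile genes, whose products form the actomyosin bundles of smooth muscle and myofibroblasts, were higher in 21 of 23 cases. Of these, 12 did not overlap between the groups. Over all genes, 5.72% were higher without overlap and 6.28% higher at the unadjusted threshold. Acta2, alpha smooth muscle actin, was at 159, 1.74, 445 and 5.43 CPM after PBS and 2378, 1984, 2241 and 2468 CPM after bleomycin. The 4 bleomycin libraries differed little, while PBS libraries 1 and 3 were intermediate and PBS libraries 2 and 4 near 0. Actg2, the enteric smooth muscle actin, had a log2 fold change of 4.72 ± 1.54, Cnn1, a calponin, 4.14 ± 1.84, Myh11, the smooth muscle myosin, 3.14 ± 1.44, and the LIM proteins Csrp1 and Csrp2 1.44 ± 0.48 and 2.34 ± 0.76. At the unadjusted threshold 9 genes passed, 4 without PBS library 2, bleomycin library 4 or PBS library 4, 5 without bleomycin library 1 and 6 without bleomycin library 3. The number was 8 without bleomycin library 2, 10 without PBS library 1 and 13 without PBS library 3. Of these genes, 0 passed with the number series as a covariate, 0 with the fibroblast marker level and 7 with the macrophage marker level. Smooth muscle and pericyte markers, a list that shares Acta2, Actg2, Cnn1 and Myh11 with this one, were higher in 9 of 10 cases, 7 without overlap, and their part in the contractile values was not tested.

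Focal adhesion genes, which tie actin to the matrix, were higher in 26 of 28 cases with 6 past the unadjusted threshold. Zyx, zyxin, was at 72.1, 40.7, 98.8 and 44.2 CPM after PBS and 292, 194, 158 and 135 CPM after bleomycin (1.61 ± 0.39), and Flna, filamin A, was at 2046, 914, 1591 and 1890.4 CPM and 2786, 2284, 2842 and 2949 CPM (0.75 ± 0.25). Neither gene overlapped between the groups. The number passing was 10 without PBS library 1 or PBS library 3, and 4 without PBS library 2. Of the focal adhesion genes, 1 passed with the number series as a covariate, 1 with the fibroblast marker level and 5 with the macrophage marker level.

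The cytosolic aminoacyl-tRNA synthetases, which load amino acids onto tRNAs, showed small differences with little spread. Of the 20 enzymes, all kept, 16 were higher after bleomycin and 10 passed the unadjusted threshold, all higher. Transcription of several synthetases is known to respond to amino acid shortage and stress through ATF4, which binds the C/EBP-ATF response element. The promoter matches to TGATGNAA, the letters of that element, are printed for the 5 synthetases that held it, to show the letters they share, and for those 4 of the 9 holders among amino acid response genes that are described here, of which Atf3 was lower after bleomycin and Asns, Chac1 and Slc1a4 were higher. Capitals mark the match on either strand, and each window of 60 bases is read 5′ to 3′ in the direction of its gene from the RefSeq promoters of build GRCm38.p6, which span 250 bases before to 50 after each start.
Aars: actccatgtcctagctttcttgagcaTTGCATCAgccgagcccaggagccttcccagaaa
Gars: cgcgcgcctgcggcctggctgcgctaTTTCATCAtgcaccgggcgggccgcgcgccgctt
Iars: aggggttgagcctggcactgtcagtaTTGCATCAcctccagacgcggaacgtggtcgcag
Tars: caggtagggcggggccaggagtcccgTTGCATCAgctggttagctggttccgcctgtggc
Yars: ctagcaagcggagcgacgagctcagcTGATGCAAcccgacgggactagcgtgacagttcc
Asns: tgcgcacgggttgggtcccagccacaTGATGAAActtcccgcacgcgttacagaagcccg
Atf3: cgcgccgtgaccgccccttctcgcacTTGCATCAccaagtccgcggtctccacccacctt
Chac1: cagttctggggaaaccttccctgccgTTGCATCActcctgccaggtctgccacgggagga
Slc1a4: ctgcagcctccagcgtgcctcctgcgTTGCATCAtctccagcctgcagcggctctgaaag
The windows lie at chr8:111033704-111033763, plus strand (Aars, which holds another match after its start), chr6:55037945-55038004, plus strand (Gars), chr13:49682111-49682170, plus strand (Iars), chr15:11399640-11399699, minus strand (Tars), chr4:129189880-129189939, plus strand (Yars), chr6:7693199-7693258, minus strand (Asns), chr1:191183410-191183469, minus strand (Atf3), chr2:119351023-119351082, plus strand (Chac1) and chr11:20332684-20332743, minus strand (Slc1a4).

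Of the 20 synthetases, 12 matched a RefSeq promoter by symbol and 5 of these held TGATGNAA, against 4.51% of all genes with a promoter. Those 5 had log2 fold changes of 0.56 to 0.79, and the 7 without it had -0.23 to 0.42. The other synthetases had no promoter entry and fall in neither class. Among them are Nars, Cars and Lars, whose log2 fold changes, given below, exceeded those of all 7 without the pattern. This was 1 of 25 letter patterns searched on both strands, it was chosen after the counts were seen, and no test was made. Some other patterns also went with higher medians among the 12, with overlapping ranges. CCAAT was held by 6 (median 0.60 against 0.12 without it, 41.1% of all genes with a promoter). CACGTG was held by 4 (0.65 against 0.31, 8.09%). A match is a description of the letters and not of binding. In the ATF4 list, 9 of 27 genes with a promoter held the pattern, with log2 fold changes of -1.69 to 1.76 (median 0.83), against -0.76 to 2.07 (median 0.53) in the 18 without it, so that the lowest gene held it and the highest did not.

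Aars, the alanine enzyme, was at 159, 204, 178 and 182 CPM after PBS and 337, 289, 265 and 273 CPM after bleomycin, without overlap. Tars, the threonine enzyme, was at 83.4, 63.1, 123 and 68.4 CPM and 203, 128, 127 and 128 CPM, and Nars, the asparagine enzyme, at 161, 134, 167 and 162 CPM and 260.1, 218, 224 and 226 CPM. Bleomycin library 1 was the highest for all 3 enzymes. The log2 fold changes were 0.69 ± 0.15 for Aars, 0.79 ± 0.22 for Tars, 0.61 ± 0.18 for Yars, 0.57 ± 0.15 for Nars, 0.56 ± 0.19 for Gars and 0.60 ± 0.25 for Iars, and DESeq2 called Aars, Tars, Yars and Nars with adjusted p of 2.25e-04, 0.035, 0.048 and 0.00335. Lars, Cars, Hars and Kars had 0.53, 0.55, 0.41 and 0.42, while Farsb, a chain of the phenylalanine enzyme, had -0.23 ± 0.29. With any 1 control library left out, 8 to 11 enzymes passed the unadjusted threshold, and with the fibroblast marker level, the macrophage marker level or the number series as a covariate 6 passed in each.

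**Figure D3:**
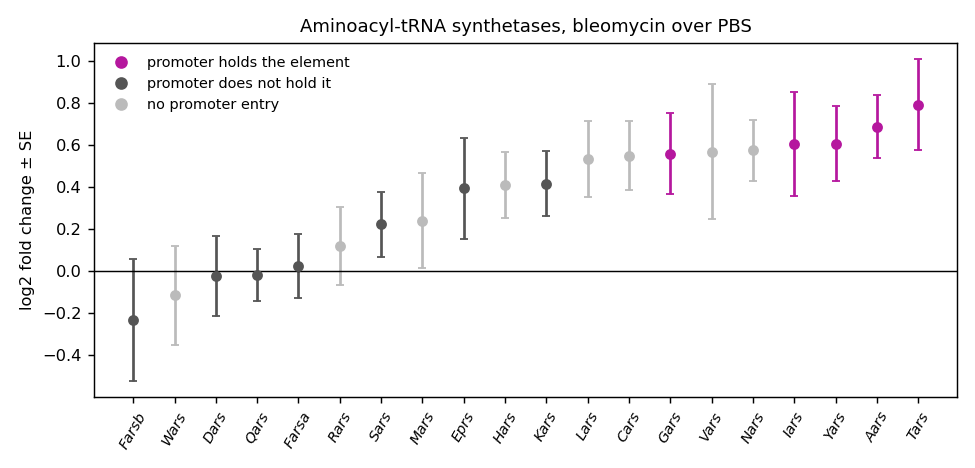
Log2 fold change of bleomycin over PBS with its SE for the 20 cytosolic aminoacyl-tRNA synthetases, ordered by size and coloured by whether the RefSeq promoter holds the C/EBP-ATF element. The 5 enzymes with the element lie between 0.56 and 0.79, and Nars, which has no promoter entry, lies in the same range.

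Genes of the amino acid response moved in both directions by their means. Of the 32 genes of amino acid supply and the ATF4 pathway kept, 13 were higher and 2 lower at the unadjusted threshold. Atf5 was at 17.5, 11.2, 21.9 and 14.3 CPM after PBS and 47.1, 61.2, 41.3 and 43.6 CPM after bleomycin, and Asns, which makes asparagine, was at 43.7, 39.5, 90.2 and 34.3 CPM and 202, 117, 106 and 106 CPM. Neither overlapped between the groups. Psat1 and Psph, of serine synthesis, had log2 fold changes of 1.35 ± 0.40 and 1.22 ± 0.36, Shmt2, which passes on serine's carbon, 1.34 ± 0.40, Aldh18a1, of proline synthesis, 1.19 ± 0.37, and the transporters Slc7a5 and Slc1a4 1.599 ± 0.47 and 1.76 ± 0.78. Chac1, which breaks down glutathione, had 1.23 ± 0.53. Atf4 itself had 0.07 ± 0.22, and Atf3 and Cebpg, bZIP factors of the same response, had -1.69 ± 0.71 and -0.52 ± 0.20. Without PBS library 3, 17 genes were higher at that threshold, and 8 were without bleomycin library 1. Among those higher, 12 passed with the number series as a covariate, 2 with the fibroblast marker level and 8 with the macrophage marker level.

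Genes of cholesterol synthesis and uptake were higher after bleomycin in 23 of 25 cases, and 11 passed the unadjusted threshold. Mvk, mevalonate kinase, was at 6.27, 6.58, 7.98 and 9.30 CPM after PBS and 14.2, 14.7, 22.8 and 19.2 CPM after bleomycin, and Aacs, which activates acetoacetate for lipid synthesis, at 28.9, 16.7, 18.2 and 22.4 CPM and 47.5, 41.3, 60.4 and 54.7 CPM. Neither overlapped, and bleomycin libraries 3 and 4 were the highest of the 8 for both. Fdps, Cyp51 and Hmgcs1, enzymes of the pathway, had log2 fold changes of 1.51 ± 0.56, 1.53 ± 0.66 and 0.92 ± 0.36, and the regulator Srebf2 had 0.64 ± 0.29. Dhcr7, the last enzyme of one branch, had -0.77 ± 0.46. The median of the list was 1.05. Without bleomycin library 3, bleomycin library 4 or PBS library 2, 4, 6 or 5 genes passed. Without bleomycin library 1 or PBS library 4, 13 passed. With the number series as a covariate the median was 0.34, and with the fibroblast marker level 1.064. At the threshold, 2 passed with the number series as a covariate, 5 with the fibroblast marker level and 7 with the macrophage marker level.

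Fatty acid synthesis genes passed the unadjusted threshold in 8 of 17 cases, all higher. Srebf1, the transcription factor that drives them, was at 33.6, 41.0, 36.7 and 37.3 CPM after PBS and 49.0, 48.9, 86.1 and 81.7 CPM after bleomycin, and Fasn, fatty acid synthase, at 98.9, 28.0, 61.3 and 50.1 CPM and 149, 105, 270.3 and 242 CPM. Neither overlapped, and bleomycin libraries 3 and 4 were the highest of the 8 for both. The desaturases Fads1, Fads2 and Scd2 had 1.64 ± 0.45, 3.38 ± 1.34 and 2.13 ± 0.85, and Gpam, of triglyceride synthesis, 0.66 ± 0.20. The adjusted p of Srebf1 was 0.268 in edgeR's quasi-likelihood test and 0.00723 in DESeq2. Of the 17 genes, 3 passed with the number series as a covariate, 2 with the fibroblast marker level and 7 with the macrophage marker level.

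Genes of lipid uptake, storage and oxidation were lower instead, in all but 2 of 26 cases, with 10 past the unadjusted threshold. Lpl, lipoprotein lipase, was at 353, 2363, 518 and 1758 CPM after PBS and 36.1, 173, 217 and 147 CPM after bleomycin, and the fatty acid receptor Cd36 was at 1074, 1549, 476 and 2126 CPM and 23.7, 321, 306 and 215 CPM. Acadl, which oxidises long-chain fatty acids, was at 76.9, 90.2, 40.1 and 90.2 CPM and 32.2, 37.7, 34.7 and 33.0 CPM. None of the 3 overlapped, and for Lpl and Cd36 bleomycin library 1 was by far the lowest. Plin2, which coats lipid droplets, had -1.74 ± 0.51, and Pparg, the regulator of lipid handling in alveolar macrophages, -1.46 ± 0.73 with overlapping groups. The number passing was 5 without bleomycin library 1, 4 without PBS library 2, 6 without bleomycin library 2 or PBS library 4, and 15 without PBS library 3. Of the 26 genes, 4 passed with the number series as a covariate, 1 with the fibroblast marker level and 3 with the macrophage marker level. With the fibroblast marker level the median went from -0.79 to -0.01.

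**Figure D4:**
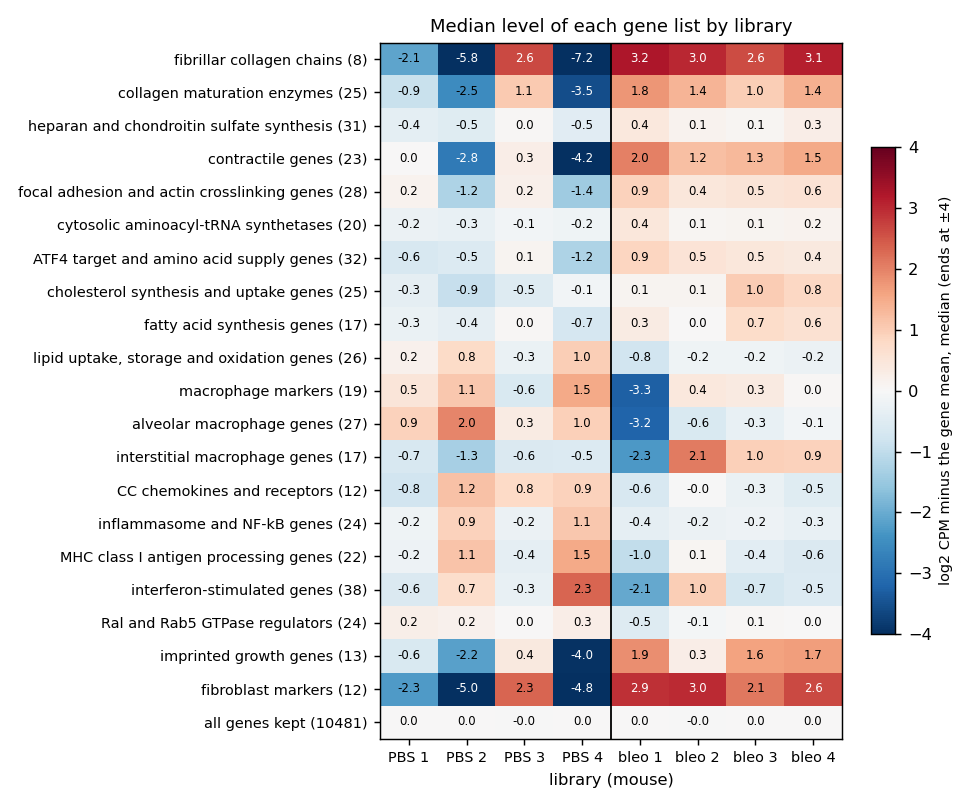
Median over each gene list (number of genes in brackets) of the log2 CPM minus the gene's mean over the 8 libraries, by library, in colour and as numbers. Fibroblast, collagen and contractile lists were low in PBS libraries 2 and 4, and macrophage lists were low in bleomycin library 1, while the synthetase and cholesterol lists were above 0 in all 4 bleomycin libraries and below 0 in all 4 PBS libraries.

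General macrophage markers were lower after bleomycin in all 19 cases. None was without overlap, against 3.2% of all genes lower without it. Only 2 passed the unadjusted threshold, close to the 7.98% of all genes that were lower there. That count was 6 without PBS library 3 and 1 without bleomycin library 1, PBS library 2 or PBS library 4. It was 0 with the number series or either marker level as a covariate. The macrophage marker level is the mean of these same genes and cannot test them. Alveolar macrophage genes were lower in all but 1 of 27 cases, 9 passed and 10 did not overlap, with a median log2 fold change of -2.06. Interstitial macrophage genes were higher in 14 of 17 cases, 5 passed, 1 did not overlap and the median was 1.59. Over all genes, 6.28% were higher at the threshold and 5.72% higher without overlap. With the macrophage marker level as a covariate the medians were -1.42 and 2.21, with 2 and 8 genes past the threshold. The alveolar genes past the threshold numbered 3 without bleomycin library 1, 4 without PBS library 2 and 13 without PBS library 3. The interstitial genes numbered 3 without bleomycin library 2, bleomycin library 3, PBS library 2 or PBS library 4, and 7 without PBS library 3. They numbered 0 with the fibroblast marker level as a covariate, where 4 alveolar genes passed. The number series as a covariate left 3 alveolar and 3 interstitial genes.

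Marco, a scavenger receptor of alveolar macrophages (chr1:120474538-120505024), was at 415, 2295, 180.2 and 728 CPM after PBS and 4.61, 15.5, 17.5 and 43.9 CPM after bleomycin. The highest bleomycin library, library 4, lay far below the lowest PBS library, library 3. Olr1, which takes up oxidised lipoprotein, was at 233, 455, 171 and 243 CPM and 47.7, 55.3, 112 and 80.9 CPM. Ear1 and Ear6, ribonucleases of alveolar macrophages with close paralogs that can share reads, had -5.07 ± 2.03 and -2.73 ± 1.08, and Krt79, a keratin that alveolar macrophages express, -5.84 ± 2.04. Krt79 rested on PBS library 2, at 159 CPM against 3.79 to 5.18 CPM in the other PBS libraries. Cybb, the catalytic subunit of the phagocyte oxidase, had -2.04 ± 0.66, with PBS library 3 inside the bleomycin range.

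The complement chains C1qa, C1qb and C1qc, which interstitial macrophages express strongly, followed each other in every library. C1qa was at 19.9, 11.8, 14.7 and 28.7 CPM after PBS and 2.46, 278, 128 and 78.9 CPM after bleomycin, so that bleomycin library 1 was below and libraries 2 to 4 were above all 4 PBS libraries. C1qb had a log2 fold change of 2.80 ± 1.54 and C1qc 2.68 ± 1.54, and neither passed the unadjusted threshold. Fcrls, an Fc receptor-like protein of tissue macrophages, was at 0.951, 0.0900, 0.342 and 0.300 CPM and 0, 17.5, 42.2 and 36.4 CPM. Gas6, a ligand for the receptors that engulf dying cells, was at 7.61, 3.48, 9.13 and 3.52 CPM and 24.1, 91.4, 39.3 and 36.2 CPM without overlap, and F13a1, a coagulation factor chain of macrophages, had 2.50 ± 0.90. Stab1, a scavenger receptor, had 1.56 ± 0.68. Csf1, the growth factor macrophages depend on, was at 58.8, 6.07, 65.4 and 10.0 CPM and 154, 107, 345 and 284 CPM without overlap, while its receptor Csf1r had -0.55 ± 0.55 and Csf2rb, a receptor chain for GM-CSF, -1.47 ± 0.63.

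**Figure D5:**
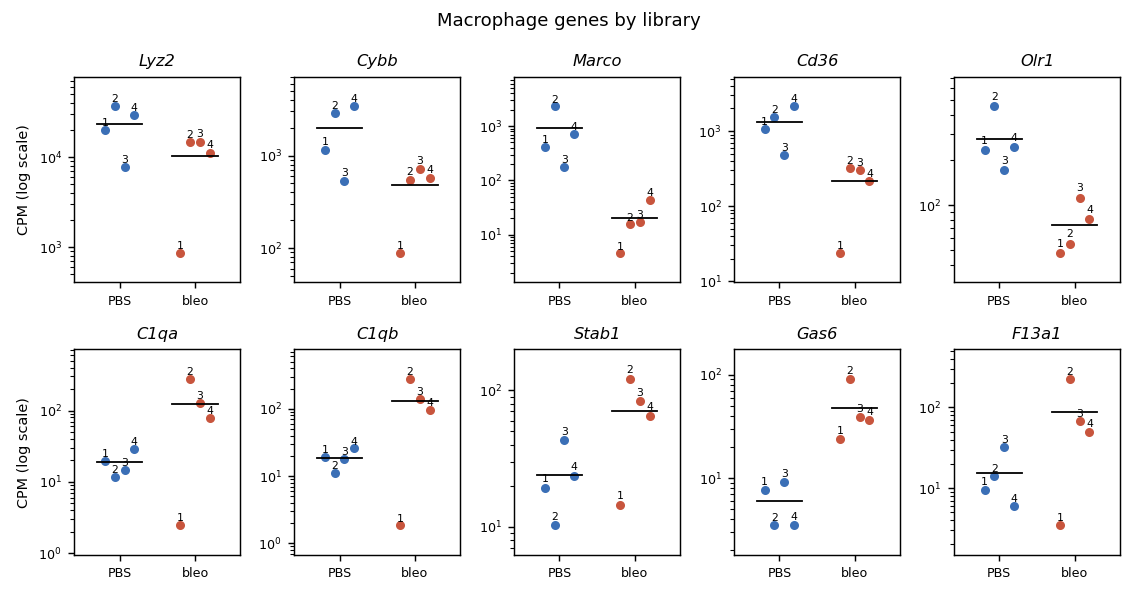
CPM (log scale) of 10 macrophage genes in the 4 PBS (blue) and 4 bleomycin (red) libraries, each point 1 library with its number and each bar the group mean. Marco, Cd36 and Olr1 (lower after bleomycin) and Gas6 (higher) do not overlap between the groups. Bleomycin library 1 is the lowest of its group in all 10 panels.

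Cytokine and complement genes went both ways. Of 32 cytokines and tumour necrosis factor family genes 15 were higher (median -0.13), of 20 complement genes 11 (median 0.16), and of 12 CC chemokines and receptors 3 (median -1.19). Il1rn, the natural antagonist of interleukin 1, was at 63.6, 427, 178 and 695 CPM after PBS and 37.4, 43.3, 33.7 and 32.8 CPM after bleomycin, a log2 fold change of -3.21 ± 0.82. Tnf was at 8.14, 39.1, 8.27 and 184 CPM and 4.87, 5.19, 6.75 and 5.84 CPM (-3.40 ± 1.19). The 4 bleomycin libraries lay close together for both genes, below all PBS libraries, and PBS library 4 was the highest. Cfb and C3, of the alternative complement pathway, had -3.51 ± 1.07 and -2.13 ± 0.71. The chemokines Ccl9, Ccl3 and Ccl22 had -2.74 ± 0.92, -2.26 ± 0.84 and -4.58 ± 1.72, while Ccl2 and Ccl7, which draw monocytes, were higher without overlap (1.98 ± 1.05 and 2.26 ± 1.41) and did not pass the unadjusted threshold. Among 24 inflammasome and NF-kB genes, 7 passed, all lower, among them the NF-kB inhibitor Tnfaip3 (-1.63 ± 0.51) and the inflammasome adaptor Pycard (-1.61 ± 0.53), and without PBS library 2, PBS library 4 or PBS library 3 the number was 3, 4 or 11. Of the NF-kB list, 1 passed with the number series as a covariate, 0 with the fibroblast marker level and 1 with the macrophage marker level. Il6st, the shared receptor chain of the interleukin 6 family, was at 80.4, 62.8, 179 and 71.2 CPM and 156, 402, 375 and 454 CPM (1.82 ± 0.45).

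Antigen presentation genes of MHC class I were lower in all but 1 of 22 cases, with 7 past the unadjusted threshold, against 7.98% of all genes. H2-K1, a classical heavy chain, had -1.41 ± 0.64, its light chain B2m -1.36 ± 0.58, and H2-Q6, which shares reads with close paralogs, -2.40 ± 0.93. Without PBS library 2 the number was 0, without bleomycin library 1, bleomycin library 4 or PBS library 4 it was 2, and it was 3 without bleomycin library 3 and 11 without PBS library 3. Of the class I genes, 3 passed with the number series as a covariate, 0 with the fibroblast marker level and 0 with the macrophage marker level. The medians with the marker levels were -0.15 and -0.37, against -1.15 without a covariate. Interferon-stimulated genes were lower in all but 1 of 38 cases with a median of -1.17. Only 2 of them, Dhx58 and Oas1a, passed, where 7.98% of all genes were lower at the threshold. Oas3, an antiviral RNA sensor, was at 4.08, 26.1, 2.101 and 272 CPM after PBS and 0.265, 31.3, 2.61 and 2.89 CPM after bleomycin, and Irf7, which drives interferon genes, at 9.13, 93.5, 21.5 and 453 CPM and 4.19, 66.3, 5.02 and 7.10 CPM. PBS library 4 was the highest for both, and without it the median was -0.26. The number passing was 0 without PBS library 4 or without bleomycin library 1, 3 or 4, 1 without PBS library 2, 4 without PBS library 1 and 12 without bleomycin library 2. Without the 3 libraries whose sex-linked genes went against the label it was 7, with a median of -1.80. None passed with the number series or either marker level as a covariate, and the medians with the marker levels were -0.04 and 0.04.

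DNA damage is the direct action of bleomycin. Of 30 p53 targets, 20 had higher means, against 44.5% of all genes (median 0.26 against -0.06 over all genes). At the unadjusted threshold 2 were higher and 1 lower, near or below the 6.28% and 7.98% over all genes. The number higher at that threshold was 6 without PBS library 1 and 1 without bleomycin library 2 or PBS library 2, 3 or 4. Trp53 itself had 0.45 ± 0.20, Aen, a nuclease induced by p53, 0.78 ± 0.26, Cdkn1a, the p21 cell cycle inhibitor, 0.54 ± 0.44, and Perp, an adhesion protein and p53 target, -1.49 ± 0.59. None of 19 double-strand break repair genes and 0 of 40 mitosis genes passed. With single control libraries left out, 0 or 1 of each list passed in the direction of its median. Pold3, a DNA polymerase subunit, had -0.83 ± 0.23. Replication-dependent histones were higher in 58 of 60 cases and none passed, but 23 passed with the number series as a covariate.

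Ephb4, the gene floxed in these mice, was at 24.2, 4.00, 33.4 and 2.32 CPM after PBS and 65.1, 13.1, 35.3 and 40.5 CPM after bleomycin, with overlapping groups. Its log2 CPM differed by 1.83 between the group means (p = 0.143, 2-sided exact permutation test, where 0.0286 is the smallest p that 4 against 4 libraries allow). The log2 fold change was 1.27 ± 0.78 in edgeR's quasi-likelihood test, with an adjusted p of 0.442.

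The corresponding contrast in Ephb4 CKO cultures shared no library with the one above. In 2 of its 4 bleomycin libraries, 1 and 2, sex-linked genes went against the label. Whether samples were exchanged was not tested, which limits the values of this contrast and of the interaction. There 0 genes passed an adjusted p of 0.05 in edgeR's quasi-likelihood test and 101 passed an unadjusted p under 0.05 (0.964%). The difference between both effects, tested as an interaction, gave 0 genes at an adjusted p of 0.05 and 363 at an unadjusted p under 0.05 (3.46%, where 524 would pass by chance), and 0 at an adjusted p of 0.05 in DESeq2 and in limma voom. Disp1 had 0.23 ± 0.20 in Ephb4 CKO cultures, a difference of 1.07 ± 0.29 on the log2 scale, and Ralgapa2 had -0.31 ± 0.17, a difference of -0.80 ± 0.25, with adjusted p of 0.916 and 0.916 in edgeR's quasi-likelihood test of the interaction. In Ephb4 CKO cultures the list medians were 0.04 for collagen maturation enzymes, 0.07 for contractile genes, 0.09 for synthetases, 0.31 for cholesterol genes, -0.02 for alveolar macrophage genes and -1.35 for interferon-stimulated genes, against -0.03 over all genes. The summed fibroblast markers were 275 to 2087 CPM in Ephb4 CKO bleomycin libraries and 195 to 2101 CPM in Ephb4 CKO PBS libraries, against 6466 to 12727 CPM in Ephb4 control bleomycin libraries, and genotype and marker content cannot be told apart in these medians. At the unadjusted threshold the interaction passed for 4 of 20 synthetases, 5 of 26 lipid uptake genes, 4 of 27 alveolar macrophage genes and 0 of 38 interferon-stimulated genes.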

How the data were processed

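Stranded, ribosome-depleted libraries were made from 17 cultures, each of 1 mouse. Per the submitters' processing notes, the authors trimmed reads with cutadapt 1.18 (the study's methods name another version), aligned them to GRCm38 with HISAT2 2.1.0 and derived the deposited whole-number gene counts with StringTie and its own script, which computes them from coverage, so overlapping or near-identical genes can share reads. The deposited counts were not normalized. Here CPM used TMM library sizes. Genes above 10 CPM in at least 2 of 17 libraries were kept (10481 of 55421). edgeR 4.0.16 (R 4.3.3) fitted a quasi-likelihood model to the 17 libraries with the 4 groups as its only term, and p-values were adjusted by Benjamini-Hochberg with a threshold of 0.05. The common dispersion was 0.311. The study used DESeq2 with a batch covariate that the labels do not give, so DESeq2 1.42.0 and limma voom 3.58.1 were alternatives, with other normalizations, filters, covariates (sex, number series, column runs, marker levels) and each library left out. The marker-level covariates were chosen after seeing the data. Each is the mean log2 CPM of its marker list, so a member of the list is adjusted in part for itself.

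The members and the gene lists were chosen with earlier results of these data known, and lists are described by counts and medians with no test. The rule for named genes took Ephb4, in each list described up to 4 kept members of smallest p in the direction of the median and up to 2 in the other, its most abundant member and members compared by role, the 15 genes of smallest p per direction without overlap, DESeq2-called list members and the 10 most abundant genes. Those with known roles were described. Pdgfra, Rnu3a, Gm10800 and Gm21738 were named after their values were seen. Values in sentences follow the order of libraries 1 to 4. Libraries were numbered in accession order, which pairs no samples, and p-values measure the spread between mice. Total counts ranged from 66540022 to 120554468 over the series. Positions come from GENCODE on GRCm38, promoters from RefSeq on GRCm38.p6. The procedure was tested on simulated data.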

Additional observations from a re-analysis of the deposited data

Results flagged for a closer look

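A library standing apart from the other 3 of its group by Dixon's criterion on log2 CPM was found 27 times among 292 groups examined, where chance flags about 1 in 20 groups, or 15. Of these, 20 concerned bleomycin library 1, whose macrophage marker level was 4.76 (mean log2 CPM) against 7.84 to 8.15 in the other bleomycin libraries. In that library macrophage genes were low, with Lyz2 at 863 CPM, Cybb at 88.3 CPM, Csf1r at 30.4 CPM, Csf2rb at 56.6 CPM, Fcrls at 0 CPM, Cd36 at 23.7 CPM and Pparg at 3.48 CPM. Low too were Itga4 at 2.80 CPM, Pycard at 8.17 CPM, Bcl2a1d at 11.6 CPM and Flt1 at 5.93 CPM. Rin2 and Chd7 were also the lowest there, at 35.5 CPM and 11.8 CPM. The same library had the highest values of Itga5 (319 CPM), Iars (105 CPM), Tars (203 CPM), Asns (202 CPM), Psph (46.4 CPM) and C3 (149 CPM). The part of that library's marker content in these values was not tested.

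Bleomycin library 2 stood apart for Fads1 (73.4 CPM), Ccl7 (79.2 CPM) and Rian (8.89 CPM). Among the PBS libraries, library 3 stood apart for Lmf2 (22.6 CPM) and Itgb5 (149 CPM), library 4 for Cars (43.9 CPM) and library 2 for Krt79 (159 CPM). Lmf2, a lipase maturation factor, was at 12.5, 11.7, 22.6 and 12.1 CPM after PBS and 31.9, 29.1, 22.9 and 25.5 CPM after bleomycin, so that this PBS library came next to the lowest bleomycin library.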

How the results depend on the processing

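No paired analysis was possible because the labels give animal identifiers and no replicate numbers shared between the groups. The count at an adjusted p of 0.05 was 0 in edgeR and 166 in DESeq2, 231 in DESeq2 with the column runs as a covariate, and with single libraries left out 0 to 2 in edgeR (2 without Ephb4 CKO bleomycin library 2, Disp1 and Eno3). The interaction gave 0, and 1 (Rnu3a) in DESeq2 with the column runs. The count at an unadjusted p under 0.05 was 1494, 3150 without a filter, 2436 with filterByExpr, 628 with the number series, 279 with the fibroblast and 625 with the macrophage marker level as a covariate, and 743 to 2614 with single libraries left out. Of 142 genes named beside Ephb4, 70 passed an adjusted p of 0.05 under at least 1 alternative that left out no single library. Many of these genes were named for a small p, for lack of overlap or for a DESeq2 call in these same libraries. DESeq2 is also 1 of the alternatives, so the number follows in part from the choice of genes. DESeq2 with default settings called 1.58% of all genes.

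With the fibroblast marker level as a covariate, the sign turned for Pdgfra (-1.80), Col1a2 (-0.10), Col3a1 (-1.23), Farsb (0.35), Dhcr7 (0.27), Pparg (0.0928), Csf1r (0.26), Ccl2 (-0.21), Ccl7 (-0.50), Oas3 (1.09), Oas1a (0.058) and Peg10 (-0.061), with the macrophage marker level for Csf1r (0.48) and Oas3 (0.44), and with the number series for Farsb (0.0335). With single libraries left out, Farsb ranged from -0.33 to 0.10 and Atf4 from -0.032 to 0.27. Pdgfra, Col1a2 and Col3a1 belong to the fibroblast list and Csf1r to the macrophage list. With the level of their own list they were adjusted in part for themselves, and the cause of the turns was not tested.

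Medians of lists moved by more than the SD of the list's level between mice as follows. With the fibroblast marker level as a covariate they were 0.27 for collagen maturation enzymes, 0.12 for heparan and chondroitin sulfate synthesis, 0.47 for ATF4 and amino acid supply genes, -0.011 for lipid uptake, -0.087 for NF-kB genes, -0.15 for MHC class I genes, 0.48 for imprinted genes and 0.019 for fibroblast markers. With the macrophage marker level the MHC class I median was -0.37. With the number series the medians were 0.22 for heparan and chondroitin sulfate synthesis and 0.34 for cholesterol genes. With limma voom they were 6.44 for fibrillar collagens and 5.66 for fibroblast markers. With single control or CKO libraries left out, medians ranged from 2.003 to 6.52 for fibrillar collagens, from 1.43 to 3.25 for collagen maturation enzymes, from 0.74 to 1.51 for ATF4 and amino acid supply genes, from 1.59 to 3.49 for imprinted genes and from 2.15 to 6.34 for fibroblast markers. The fibroblast marker level is the mean of the fibroblast markers themselves and holds several fibrillar collagen chains. The cause was not tested, and the design leaves number series and treatment nearly confounded.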

Other observations

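Imprinted genes of the embryonic growth network were higher after bleomycin in 11 of 13 cases, and 4 passed the unadjusted threshold. Peg10, a retrotransposon-derived gene, was at 2.29, 2.49, 5.26 and 0.110 CPM after PBS and 18.3, 18.6, 17.4 and 17.2 CPM after bleomycin, and Ndn, a growth suppressor, at 2.62, 0.607, 12.7 and 1.96 CPM and 29.6, 14.1, 23.9 and 26.6 CPM. Neither overlapped between the groups. Rian, a noncoding transcript of the Dlk1-Dio3 cluster, was at 2.103, 0.956, 11.4 and 0.0401 CPM and 125, 8.89, 94.1 and 143 CPM, with bleomycin library 2 inside the PBS range. Without PBS library 1, 2 or 4, 0 imprinted genes passed, and 8 passed without PBS library 3. Of these genes, 0 passed with the number series as a covariate, 0 with the fibroblast marker level and 3 with the macrophage marker level.

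Single genes outside the groups above differed without overlap. Alas1, the first enzyme of heme synthesis, was at 496, 925, 294 and 1024 CPM after PBS and 131, 67.9, 248 and 205 CPM after bleomycin, and Prdx1, a peroxidase, at 911, 3492, 913 and 5241 CPM and 501, 813, 813 and 725 CPM. Lgals1, galectin 1, was at 430.3, 293, 512 and 704 CPM and 1232.9, 831, 1029 and 1124 CPM. The snoRNA host transcript Snhg12 had a log2 fold change of 0.67 ± 0.19, Flt1, a receptor for VEGF, -1.77 ± 0.59, and Sec31a, of the coat that carries cargo out of the endoplasmic reticulum, 0.82 ± 0.22. Met, the receptor for hepatocyte growth factor, had -2.16 ± 0.83 with overlapping groups.

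A pair of predicted genes, chosen after their values were seen, was highest in PBS library 3. Gm10800 was at 0.562, 49.96, 2259 and 83.0 CPM after PBS and 0.372, 0.115, 0.0602 and 0.669 CPM after bleomycin, and Gm21738 at 0.161, 10.9, 423 and 14.7 CPM and 0, 0, 0 and 0.103 CPM.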
